A study of Mus musculus with 18 samples.

Results

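The net change over the 48 h of exit from naive pluripotency was described within 1 cell line, iEZR_CA mouse embryonic stem cells (ESCs). Its members are 6 of the 18 libraries of the series: 3 of iEZR_CA ESCs held in 2i+LIF (0 h) and 3 of the same line after 48 h in N2B27 (T48). The libraries were chosen by their labels and no measured value entered the choice. iEZR_CA cells carry a doxycycline-inducible, phosphomimetic and thereby constitutively active form of ezrin, placed in E14 cells by PiggyBac transposition with an mCherry reporter, and they received doxycycline overnight before exit. ESC and T48 cells thus share the construct, and whether the drug was kept in the medium during exit is not stated in the sources used here. The remaining libraries are 3 of iEZR_CA cells at 24 h (T24) and 9 of WT cells (E14 wt, called the parental line in the labels) at 0, 24 and 48 h, for which no doxycycline is stated. Cells of both lines grew on gelatin and were seeded and collected in parallel, and polyA RNA was sequenced. WT cells serve below only to show where iEZR_CA cells differed. The single construct and its driver, a doxycycline-inducible promoter, limit the model: no inducible line with another insert was compared here.

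ESCs in 2i+LIF are held in naive pluripotency by a MEK inhibitor, which blocks ERK signalling, a GSK3 inhibitor, which mimics WNT signalling, and LIF, which activates STAT3. In N2B27 these are removed, autocrine FGF4 activates ERK, the naive transcription factors are lost, and the cells pass into a formative state that resembles the early post-implantation epiblast. Ezrin, radixin and moesin (ERM proteins) tie the plasma membrane to cortical actin when a conserved threonine is phosphorylated, and the active form used here mimics that phosphorylation.

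The labels were checked against the data first. Hprt, whose deficiency defines the E14TG2a line, lay between 115 and 159 CPM (the share of a library's reads on genes, counted per 1000000 reads and scaled by TMM) in all 9 WT libraries and between 0.282 and 0.895 CPM in all 9 iEZR_CA libraries. Mid1-ps1, picked after its values were seen, went the other way, with 12.8 to 15.6 CPM in every iEZR_CA library and 0 to 0.123 CPM in every WT library. The study gives its WT cells as E14TG2a, so it is the WT libraries whose Hprt level goes against the name given. The lines thus differed in genes other than Ezr (Hprt and Mid1-ps1), which goes against a label of parent and derived line. In each comparison between lines below, ezrin, doxycycline and this further difference cannot be told apart. Hprt itself was at 0.475, 0.282 and 0.402 CPM in the iEZR_CA ESC libraries and at 0.560, 0.515 and 0.574 CPM at T48, with no passed change. Ezr was read at 1209, 1174 and 1182 CPM in the 3 iEZR_CA ESC libraries, at 993 ± 25.1 CPM at T24 (mean ± SD, n = 3) and at 768, 783 and 775 CPM at T48. Its T48 libraries all lay below its ESC libraries (log2 change -0.62 ± 0.03, SE), and reads of the transgene and of the endogenous gene were not separable. WT cells had 566 ± 12.4 CPM at 0 h and 481 ± 17.6 CPM at T48.

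The 6 libraries held 15074458 to 26779965 reads on genes. Replicates of a group differed by more than sampling noise (a chi-square statistic 1.61 to 2.51 times its degrees of freedom across genes), so none was counted as a duplicate. The common biological coefficient of variation was 2.98%, at which small changes pass the test. The share of mitochondrially encoded reads went from 0.899% to 0.940% of gene reads in ESC libraries to 0.505% to 0.598% at T48. Spike-in RNA took 1.01% to 1.08% of gene and spike-in reads in the ESC libraries and 0.759%, 0.848% and 1.15% in the T48 libraries. RNA came from whole cultures, in which fewer cells of a type and less RNA per cell cannot be told apart.

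Most of the transcriptome moved, and most of it by little. "Rose" and "fell" below mean an adjusted p under 0.05 in edgeR's quasi-likelihood test over 18469 genes, with 3 libraries per group. Changes are given as log2 fold changes ± SE, and 3 values in CPM are the 3 libraries of a group. Of these genes 6492 rose (35.2% of those tested), 6462 fell (35.0%) and 5515 did not pass. Counts of list members below are to be read beside these shares. More than 2-fold, 2533 rose (13.7%) and 2284 fell (12.4%). Of the genes that passed, 44.4% changed by less than 1.5-fold. The ESC and T48 libraries did not overlap in 13437 genes (72.8%). Scaling to spike-in RNA shifted the median change by 0.249 on the log2 scale and turned the split into 7528 higher and 3317 lower, so that small changes below are relative to the other genes and not per cell. Where a gene below is said to turn under spike-in scaling, only the sign of its log2 change turned, whether or not it passed. In all, 12537 genes had at least 2 CPM in every ESC library and 12659 in every T48 library, and 11841 had so in all 6.

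A stricter group was formed by genes that were switched. A gene counted as switched on where it was below 0.5 CPM in all 3 ESC libraries and at 2 CPM or more in all 3 T48 libraries, and as switched off in the reverse case. By this rule 143 genes were switched on and 126 switched off. The levels that define the switch are a description, with no test. The switched-on gene nearest the bound was Fignl2, whose highest ESC library had 0.484 CPM, and the nearest outside was Pkdcc at 0.524 CPM. On the off side, Mybpc1 (highest T48 library 0.480 CPM) was just inside and Spns3 (0.515 CPM) just outside.

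Of the protein-coding genes found in the RefSeq promoter table, the promoters of the 2 switched on and the 2 switched off that stood highest per kilobase of exon when on are shown, to set their sequence beside that of a gene that hardly moved. They run from 250 bases before to 50 bases after the start, on the sense strand, as RefSeq gives them for GRCm38.p6. The genes are Fgf5 (chr5:98253934-98254233, plus strand) and Vrtn (chr12:84640769-84641068, plus), switched on, Gsc (chr12:104473187-104473486, minus) and Sp5 (chr2:70474673-70474972, plus), switched off, and Eef1a1 (chr9:78481675-78481974, minus). Capitals mark the motifs searched, which were TATAAA on the sense strand (TATA box) and, on both strands, CTTTGAT (TCF/LEF), TTCNNNGAA (STAT), AAGGTCA (ESRRB) and CACGTG (E-box).
Fgf5: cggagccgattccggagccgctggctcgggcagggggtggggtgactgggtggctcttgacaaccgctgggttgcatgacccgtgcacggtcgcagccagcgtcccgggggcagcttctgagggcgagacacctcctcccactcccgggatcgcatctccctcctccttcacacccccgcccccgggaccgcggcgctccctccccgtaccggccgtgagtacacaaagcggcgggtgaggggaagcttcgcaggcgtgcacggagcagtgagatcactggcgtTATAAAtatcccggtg
Vrtn: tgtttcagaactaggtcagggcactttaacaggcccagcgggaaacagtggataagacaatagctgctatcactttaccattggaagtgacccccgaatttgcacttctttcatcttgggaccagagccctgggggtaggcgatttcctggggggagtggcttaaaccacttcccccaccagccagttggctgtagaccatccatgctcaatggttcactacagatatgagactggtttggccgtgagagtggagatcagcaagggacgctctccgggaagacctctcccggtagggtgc
Gsc: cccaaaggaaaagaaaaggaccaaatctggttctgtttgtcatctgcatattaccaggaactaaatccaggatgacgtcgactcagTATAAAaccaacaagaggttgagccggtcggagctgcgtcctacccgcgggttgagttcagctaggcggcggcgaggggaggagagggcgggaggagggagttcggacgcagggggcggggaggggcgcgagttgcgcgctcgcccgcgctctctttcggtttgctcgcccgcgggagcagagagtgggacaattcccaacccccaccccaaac
Sp5: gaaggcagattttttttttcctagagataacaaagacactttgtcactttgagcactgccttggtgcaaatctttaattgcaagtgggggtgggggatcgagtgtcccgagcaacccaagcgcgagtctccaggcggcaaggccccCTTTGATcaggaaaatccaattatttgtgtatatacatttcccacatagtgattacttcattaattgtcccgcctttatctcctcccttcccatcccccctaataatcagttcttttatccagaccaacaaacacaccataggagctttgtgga
Eef1a1: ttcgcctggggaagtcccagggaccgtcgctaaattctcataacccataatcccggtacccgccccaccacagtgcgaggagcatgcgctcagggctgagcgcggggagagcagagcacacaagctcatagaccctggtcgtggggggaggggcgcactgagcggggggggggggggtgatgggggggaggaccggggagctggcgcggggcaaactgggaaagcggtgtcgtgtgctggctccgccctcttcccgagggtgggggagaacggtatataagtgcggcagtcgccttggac
Fgf5 held 29 CpG dinucleotides in these 300 bases, Gsc 25 and Eef1a1 22, against 7 in Vrtn and 6 in Sp5, so CpG-rich and CpG-poor promoters stood among both the genes switched on and those switched off. Fgf5 held a TATAAA 34 bases after its start and Gsc one 164 bases before, and 8.88% of the 27025 promoters in the RefSeq table held this motif. Sp5, a transcription factor induced by WNT signalling, held CTTTGAT 104 bases before its start, a motif found in 3.76% of all these promoters. Vrtn and Eef1a1 held none of the 5 motifs, and STAT, ESRRB and E-box motifs stood in 8.42%, 4.65% and 7.24% of all promoters. A match is a description of letters and not a site of binding. A comparison of the promoters of all switched genes is void, since the table held 69.2% of the genes switched on, 67.5% of those switched off and 64.7% of all genes tested, below the 80% set for such a check.

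Among the genes switched on, H19, an imprinted long noncoding RNA, stood highest per kilobase of exon at T48, with 0.475, 0.322 and 0.268 CPM in the ESC libraries and 82.5, 94.6 and 95.4 CPM at T48. Vrtn went from 0.0528, 0.0806 and 0.0669 to 82.8, 78.6 and 70.3 CPM. Fgf5, the FGF ligand that marks the formative state and the epiblast, had 0, 0 and 2 reads in the ESC libraries and 64.7, 61.9 and 65.1 CPM at T48, a ratio of 1869 with a 95% counting interval of 517 to 15440. The switch rule itself set all 3 T48 libraries of each of these genes above all 3 ESC libraries. Dll1, a Notch ligand, had 1 read in the 3 ESC libraries together and 48.1, 46.7 and 43.6 CPM at T48 (ratio 2725, 95% counting interval 489 to 107600). Esrp1, a regulator of epithelial splicing, went from 0.264, 0.484 and 0.469 to 66.5, 61.6 and 56.9 CPM, and the lipoxygenase gene Alox15 from 0.0528, 0.0403 and 0.134 to 16.6, 17.2 and 17.7 CPM. Ror1, a receptor for WNT5A, went from 0.106, 0.0806 and 0 to 33.1, 31.1 and 29.8 CPM, and the chemokine gene Cxcl12 from 0.106, 0.0403 and 0 to 26.2, 25.2 and 23.0 CPM.

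Of the 143 genes, 9 had no read in any ESC library. Against the bound of 3 reads over the group, Enpp2, which encodes the lysophosphatidic acid-producing enzyme autotaxin, was at least 764-fold higher at T48 (42.7, 37.7 and 35.9 CPM). Car4, a carbonic anhydrase on the cell surface, was at least 541-fold higher (27.6, 28.3 and 26.5 CPM). Dcn, the matrix proteoglycan decorin, was at least 314-fold higher (15.7, 17.4 and 14.5 CPM). Tmem54 and Ms4a4d, both membrane proteins, were at least 116-fold and 105-fold higher. These intervals and bounds cover counting error only. Myrf, a membrane-bound transcription factor, began above the bound of the switch (0.686, 0.645 and 0.736 CPM) and had among the largest rises, to 336, 324 and 339.9 CPM (log2 change 8.92 ± 0.07).

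The genes switched off that stood high per kilobase in ESCs included several transcription factors. Gsc, a homeobox factor of the organiser, had 25.1, 27.4 and 27.4 CPM in the ESC libraries and 0.120, 0.331 and 0.172 CPM at T48. Sp5 went from 33.2, 29.7 and 25.1 to 0.20, 0.0735 and 0.459 CPM and Cdx1, a caudal homeobox factor, from 26.5, 24.5 and 21.5 to 0.240, 0.221 and 0.230 CPM. Msc, the bHLH factor musculin, was at 39.8, 41.8 and 43.2 CPM before and 0.160, 0.257 and 0.230 CPM after. Hoxc12, a posterior homeobox gene, went from 14.8, 12.5 and 13.1 to 0.0400, 0.0368 and 0.115 CPM. In each of these the switch rule itself set the 3 ESC libraries above the 3 T48 libraries. Mal, a lipid raft protein, fell from 33.1, 31.8 and 28.2 to 0, 0.0735 and 0.230 CPM, and Spic, an ETS factor, from 41.1, 40.7 and 38.2 to 0.240, 0.441 and 0.230 CPM. Dppa1, which had 6.23, 6.29 and 5.62 CPM in ESC libraries, had no read at T48 and was at least 142-fold lower. Gsdma3, a gasdermin, had 1 read in the 3 T48 libraries (ratio of ESC to T48 504, 95% counting interval 89.97 to 19950). The antisense transcripts 2310043M15Rik and Gm13580 were also switched off, but the strand setting of the counting was not stated and reads of their sense partners cannot be told apart from theirs.

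The switched genes were mostly of low level. The median level when on was 4.12 CPM for genes switched on and 4.19 CPM for genes switched off, and 27 and 25 of them reached 10 CPM. Of those switched on, 133 were protein-coding, 9 long noncoding or antisense and 1 a pseudogene. Of those switched off, 101 were protein-coding, 15 long noncoding or antisense, 9 pseudogenes and 1 a miRNA gene. Genes switched on had a median exon length of 4219 bases and those switched off one of 2267 bases, beside 3558 bases over all genes tested. Of the genes switched on 16 (11.2%) lay on the X chromosome, and of those switched off 2 (1.59%), beside 4.23% of all genes tested. Among these 16 was Cldn2, a pore-forming claudin that, like Cysltr1, was picked after its values were seen, at 0.0399 CPM in iEZR_CA ESCs, 12.9 CPM at T48 and 0.957 CPM in WT cells at T48 (means of 3). Cysltr1, a leukotriene receptor without a read in the ESC libraries, had a mean of 3.77 CPM at T48. These are counts over genes that the switch rule chose, and no test was made of them.

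**Figure D1:**
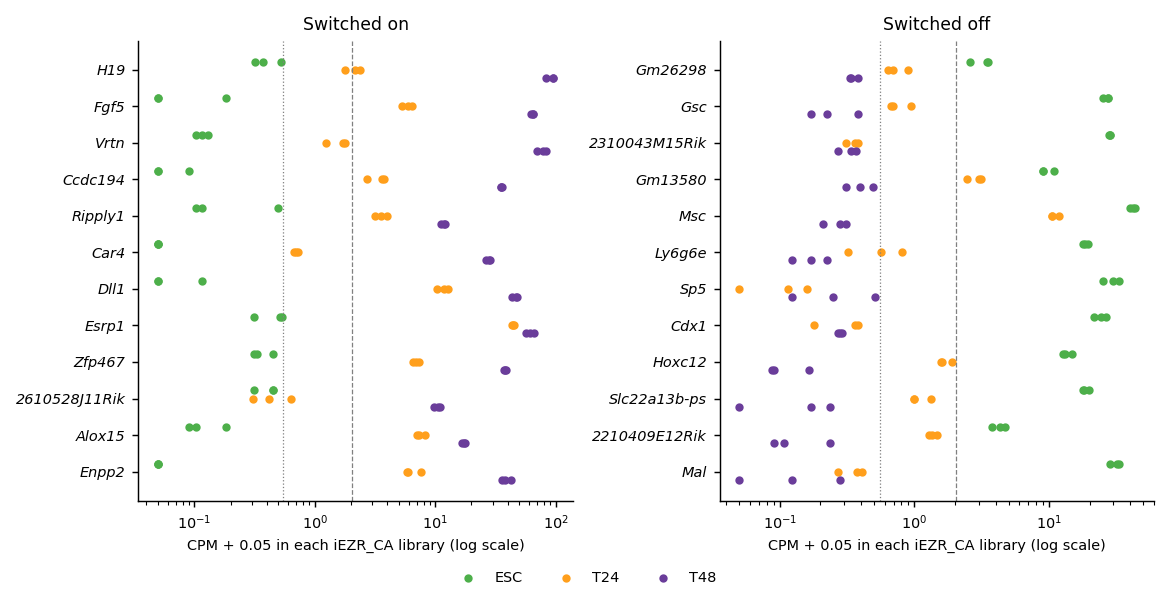
Level of the 12 genes switched on (left) and the 12 switched off (right) that stood highest per kilobase when on, as CPM + 0.05 on a log scale, each point 1 iEZR_CA library at ESC, T24 or T48. Dotted and dashed lines mark 0.5 and 2 CPM, and H19 at T48 lies between 82.5 and 95.4 CPM while its ESC libraries lie below 0.5 CPM.

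The 15 naive pluripotency genes of the study all fell, 14 of them by more than 2-fold, and their summed level went from 6360 to 6391 CPM in the ESC libraries to 824 to 873 CPM at T48. The median log2 change was -3.05, beside 0.01 over all genes tested. The study showed these genes in these samples, and how it chose them is not stated in the sources used here, so their direction is not taken as independent evidence. Nanog (chr6:122707489-122714633), a core factor of naive identity, had 1008, 1014 and 990.1 CPM in the ESC libraries and 51.1, 53.5 and 54.2 CPM at T48 (log2 change -4.25 ± 0.03). Tfcp2l1 went from 1239.9, 1295 and 1311 to 50.1, 48.5 and 52.0 CPM and Tbx3 from 368, 349 and 361 to 8.68, 7.87 and 9.07 CPM. Prdm14, which represses Dnmt3b and FGF signalling, was lowered the most of the 15, from 60.1, 65.9 and 65.1 to 1.68, 1.10 and 1.03 CPM (-5.62 ± 0.10). Klf4 fell from 287, 272 and 265 to 14.042, 14.2 and 15.5 CPM and Esrrb from 922, 911 and 927 to 120.1, 124 and 129 CPM. All of these remained above 1 CPM in every T48 library.

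Other naive genes remained well expressed at T48. Zfp42 (Rex1), used as a reporter of the naive state, had 847, 837 and 839 CPM in ESC libraries, 846 ± 15.1 CPM at T24 and 226, 241 and 258 CPM at T48 (-1.80 ± 0.03). Fbxo15 fell from 473, 472 and 460.5 to 144, 156 and 147 CPM. Nr0b1 (Dax1), an orphan nuclear receptor, changed least, from 59.9, 57.6 and 65.1 to 46.9, 49.5 and 51.5 CPM (-0.30 ± 0.05), after a level of 305 ± 4.11 CPM at T24. Each of the 15 fell less in iEZR_CA than in WT cells, with a passed test of the difference in every case. The WT median was -5.38, and the difference was largest for Nr0b1, at 3.55 ± 0.08 on the log2 scale. Over all genes tested, 25.7% changed more upward in iEZR_CA than in WT cells and 20.0% more downward.

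Of 12 further genes that are high in naive cells, 8 fell, 3 rose and 1 did not pass. Jam2, a junctional adhesion molecule, fell from 353, 355 and 346 to 3.52, 3.93 and 4.31 CPM and Tdh, threonine dehydrogenase, from 311, 311 and 296 to 21.7, 21.5 and 21.4 CPM. Dppa4, a nuclear protein of pluripotent cells, rose from 43.8, 44.4 and 46.3 to 109.9, 117 and 118 CPM, and its neighbour Dppa2 rose by 0.33 ± 0.04. Gbx2 had 13.8, 11.3 and 12.2 CPM before and 14.042, 15.8 and 13.5 CPM after (0.23 ± 0.09, adjusted p = 0.026), whereas in WT cells it rose from a mean of 19.5 to 98.8 CPM. The general pluripotency factor Pou5f1 (Oct4) fell slightly, from 631, 630.0 and 611 to 515, 521 and 524 CPM, and Sox2 fell from 456, 437 and 438 to 199, 196 and 213 CPM. Sall4 did not pass, at -0.05 ± 0.03.

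The 6 early post-implantation genes of the study, to which the same applies, all rose by more than 2-fold, with a median of 4.07. Pou3f1 (Oct6), a POU factor of the epiblast, went from 0.845, 1.29 and 1.61 to 303, 274 and 292 CPM (7.88 ± 0.20). Lef1, a transcriptional partner of beta-catenin, went from 0.528, 0.725 and 0.937 to 73.9, 68.5 and 68.5 CPM. Otx2, a homeobox factor that drives formative enhancers, rose from 10.7, 12.9 and 12.8 to 164, 168 and 169 CPM. It was the only 1 of the 6 that changed more upward than in WT cells (difference 0.70 ± 0.09). Of the other genes 2 changed more downward and 3 did not pass the test of the difference. At T24, by immunostaining, the study found that iEZR_CA cells did not raise Otx2 protein efficiently. The 3 T48 libraries of each gene stood close together and above its ESC libraries. Sox4 rose from 2.06, 1.65 and 2.54 to 43.2, 37.1 and 43.6 CPM.

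All 14 further formative genes rose, 12 of them by more than 2-fold, with a summed level of 424 to 444 CPM in ESC and 2639 to 2722 CPM in T48 libraries. Pim2, a serine/threonine kinase, rose from 12.6, 13.017 and 12.9 to 901, 890.1 and 873 CPM (6.11 ± 0.04). Fzd7, a WNT receptor, rose from 23.2, 20.6 and 22.8 to 315, 293 and 300.3 CPM, and Utf1, a chromatin-bound factor, from 73.1, 82.4 and 88.1 to 522, 520.4 and 516 CPM. The zinc finger factors Zic2 and Zic5 rose by 2.36 ± 0.04 and 2.40 ± 0.05. Grhl2, which opens epithelial enhancers, rose from 8.66, 8.79 and 7.03 to 77.9, 77.4 and 72.4 CPM and Lin28b, which blocks let-7 maturation, from 3.38, 3.06 and 3.48 to 29.2, 28.7 and 28.9 CPM. Foxd3 (0.19 ± 0.04) and Tead2 (0.08 ± 0.04, adjusted p = 0.046) hardly changed.

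**Figure D2:**
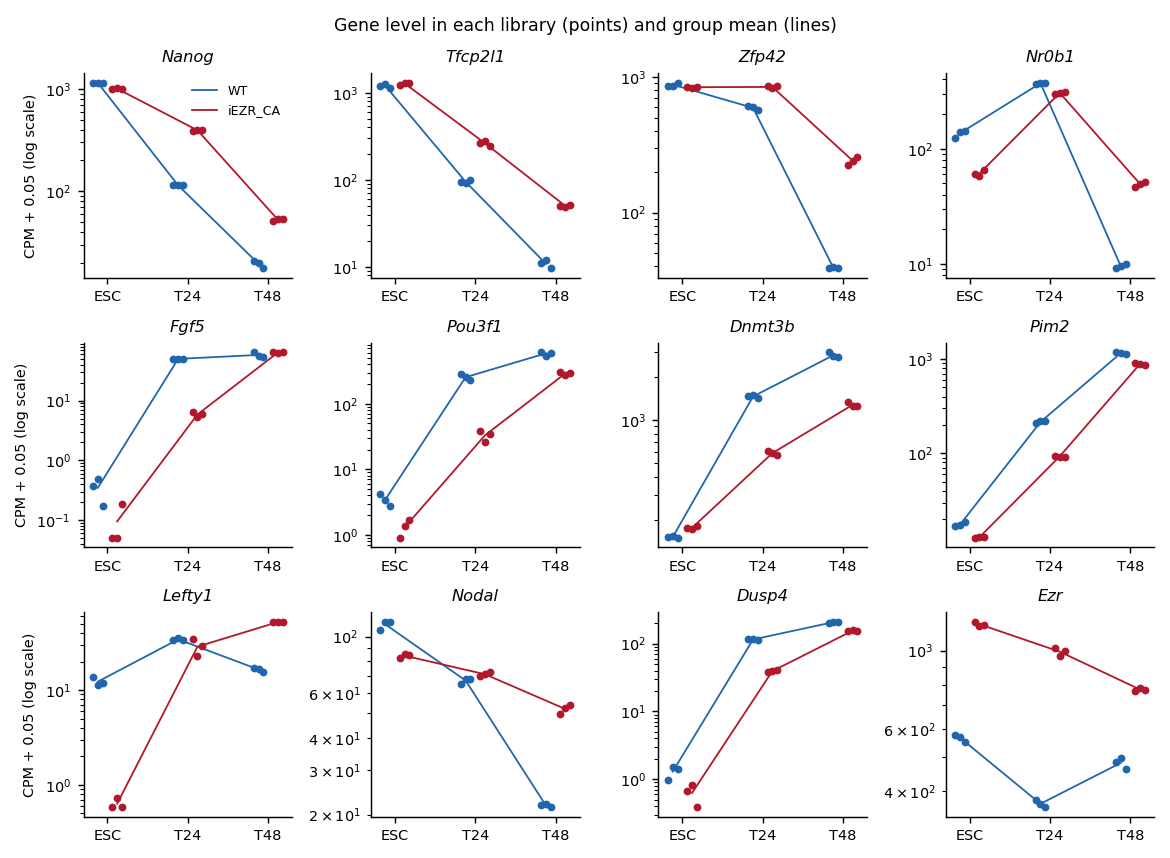
CPM + 0.05 (log scale) of 12 genes in each library (points) with group means (lines), for WT and iEZR_CA cells at ESC, T24 and T48. Nanog ended between 51.1 and 54.2 CPM in iEZR_CA cells and Fgf5 between 61.9 and 65.1 CPM, while Lefty1 rose from under 1 CPM.

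Targets and feedback inhibitors of ERK, which the MEK inhibitor of 2i keeps down, split. Of the 10 targets 5 rose, 4 fell and 1 did not pass, with a median of 0.12 beside -0.15 in WT cells. Of the 10, 5 changed more upward than in WT cells and 3 more downward, beside 25.7% and 20.0% of all genes tested. Over all genes tested 35.2% rose and 35.0% fell. Dusp4, a nuclear phosphatase that switches ERK off, went from 0.633, 0.766 and 0.335 to 153, 157 and 154 CPM (7.97 ± 0.08), and its cytoplasmic relative Dusp6 from 9.61, 9.31 and 12.2 to 71.6, 77.8 and 75.9 CPM. Spry4, a feedback inhibitor, rose by 3.44 ± 0.07. Epha4, an ephrin receptor, fell from 186, 187 and 178 to 17.4, 20.001 and 21.5 CPM, and Epha2 fell too (-0.33 ± 0.03). Spry2 fell by a small amount (-0.16 ± 0.04) and turned to a rise under spike-in scaling. Etv5 had 402, 397 and 397 CPM in ESC and 412, 397 and 394 CPM in T48 libraries and did not pass.

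Of 11 immediate early and other response genes 7 rose and 2 fell. Egr1, an early growth response factor, was switched on, from 0.264, 0.202 and 0.268 to 9.80, 8.79 and 7.69 CPM, and Myc rose from 2.74, 3.75 and 3.81 to 37.0, 39.7 and 36.3 CPM. Myc and Dusp5 (1.39 ± 0.10) stood above all their ESC libraries in every T48 library. Fos and Junb, subunits of AP-1, fell, Junb from 19.9, 19.9 and 19.9 to 2.44, 2.65 and 1.90 CPM. Of the 12 FGF ligands and receptors 7 rose and 4 fell. Fgf4, the autocrine ligand of ESCs, fell modestly, from 291, 297 and 276 to 215, 218 and 225 CPM. Fgf15 was switched on (0.106, 0.0806 and 0.201 to 4.04, 3.86 and 3.85 CPM). The receptor gene Fgfr2 rose from 6.97, 7.50 and 8.63 to 62.0, 61.6 and 58.5 CPM, while Fgfr1 fell (-0.14 ± 0.03) and turned to a rise under spike-in scaling.

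WNT/TCF targets fell in 10 of 13 cases, with a median of -1.59. Axin2, the feedback inhibitor most used as a readout, fell from 53.1, 45.8 and 42.5 to 15.6, 16.4 and 14.8 CPM, and Apcdd1, a membrane-bound WNT inhibitor, fell too (-2.97 ± 0.07). Dkk1 and Rnf43, both WNT inhibitors, fell from low levels (Rnf43 1.11, 0.887 and 0.937 to 0.160, 0.147 and 0.0574 CPM). Nkd1 and Znrf3 rose, by 1.34 ± 0.13 and 0.18 ± 0.08. Notum, a secreted enzyme that inactivates WNT ligands, kept 7.16, 6.29 and 8.21 CPM at T48 of 22.8, 23.1 and 20.9 CPM in ESC libraries. In WT cells its mean went from 60.9 to 0.485 CPM, and the difference between lines was 5.17 ± 0.19. Tcf7 fell (-0.15 ± 0.04), with the sign turned under spike-in scaling.

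All 7 LIF/STAT3 targets and receptors fell. Socs3, a feedback inhibitor of STAT3, dropped from 122, 126 and 130.2 to 4.56, 5.07 and 4.9959 CPM and had reached 3.66 ± 0.533 CPM at T24. Bcl3 fell from 104, 94.2 and 92.0 to 0.960, 1.32 and 1.61 CPM. The receptor genes Lifr (-0.69 ± 0.04) and Il6st (-1.44 ± 0.04) fell too, and in WT cells Lifr fell (-2.27 ± 0.05), a difference of 1.57 ± 0.07.

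The NODAL pathway, which acts through SMAD2 and SMAD3 in the epiblast, moved both ways. Of its 11 genes 6 rose and 5 fell, with a median of 0.92 beside -0.94 in WT cells. Of the 11, 10 changed more upward than in WT cells, beside 25.7% of all genes tested. The ligand gene Nodal fell from 82.2, 85.4 and 84.9 to 49.8, 52.4 and 53.7 CPM, and its co-receptor gene Tdgf1 (Cripto) from 302, 304 and 315 to 97.8, 92.4 and 93.9 CPM. The feedback inhibitors encoded by the Lefty genes rose. Lefty1 went from 0.528, 0.685 and 0.535 to 52.8, 52.0 and 51.7 CPM (6.44 ± 0.19), with all T48 libraries above 50 CPM and all ESC libraries below 1 CPM. In WT cells Lefty1 had 12.2 ± 1.24 CPM at 0 h and 16.5 ± 0.755 CPM at T48, a difference of 6.004 ± 0.26 in the change. Lefty2 rose from 2.22, 2.70 and 3.35 to 16.0, 15.3 and 14.8 CPM, while in WT cells it fell by 2.56 on the log2 scale. The SMAD co-repressor gene Skil rose from 41.4, 45.6 and 44.0 to 334, 312 and 312 CPM and Foxh1, the DNA-binding partner of SMAD2, by 0.92 ± 0.04. The inhibitory Smad7 fell from 141, 134 and 133 to 17.8, 15.2 and 17.9 CPM, and Pcsk6 and Furin, proteases that process Nodal, fell (-1.68 ± 0.04 and -0.29 ± 0.06).

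BMP and ID genes mostly fell, 8 of 10, each by more than 2-fold. Bmp4 went from 31.6, 27.8 and 30.5 to 5.12, 5.4047 and 4.88 CPM and Smad6, a feedback inhibitor, from 16.8, 19.6 and 19.3 to 4.40, 3.93 and 5.57 CPM. Id1, Id3 and Id4, which block bHLH factors, fell (-1.39 ± 0.22, -1.45 ± 0.08 and -2.71 ± 0.20). Id2 fell from 24.6, 23.1 and 19.4 to 6.88, 6.91 and 7.87 CPM and rose in WT cells (4.50 to 15.4 CPM, means), a difference of -3.43 ± 0.13. The receptor gene Bmpr1a and Msx1 rose (0.28 ± 0.03 and 1.26 ± 0.31).

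**Figure D3:**
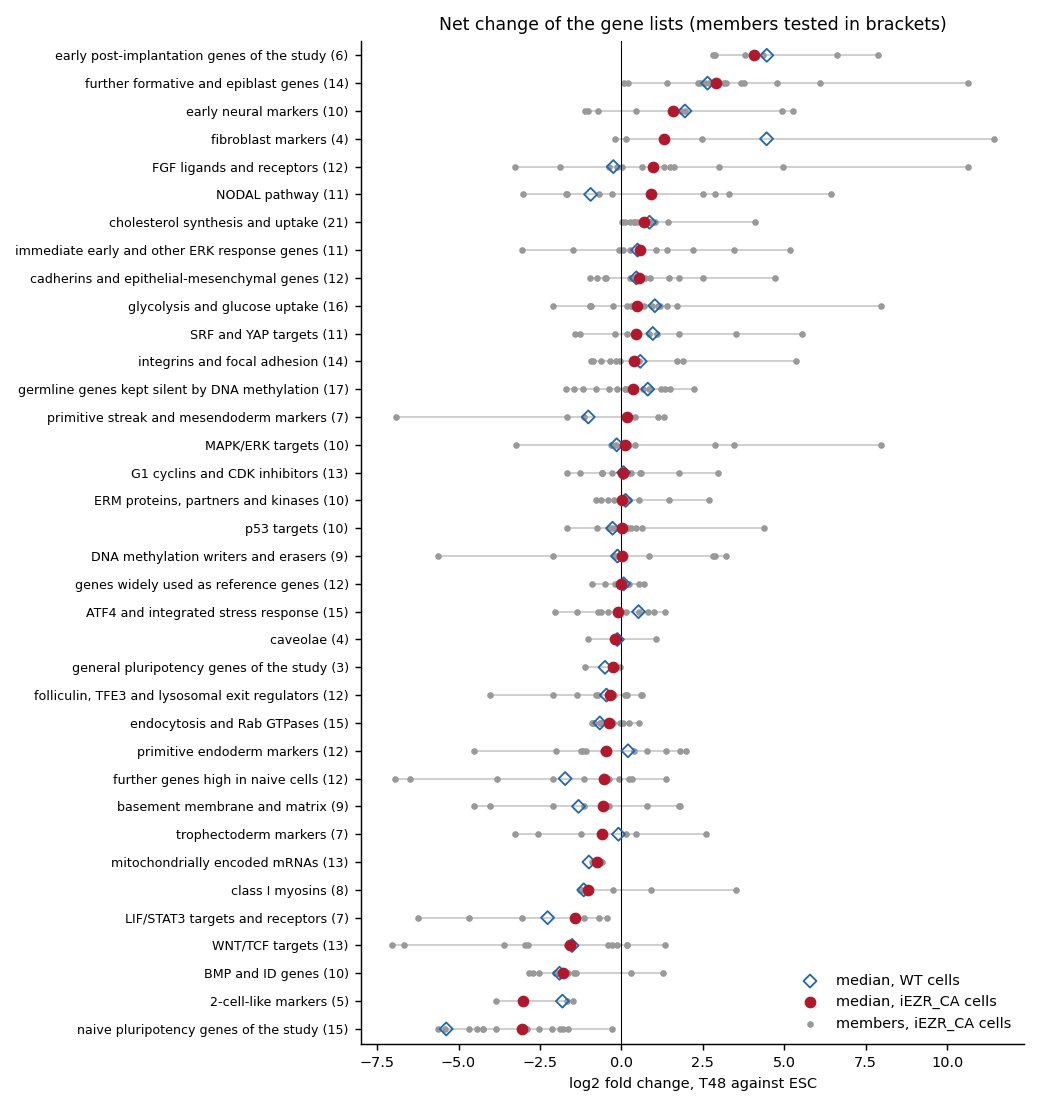
log2 fold change, T48 against ESC, of the tested members (grey) of 36 gene lists in iEZR_CA cells, with the median in iEZR_CA (red) and WT cells (blue diamonds). The iEZR_CA medians run from 4.07 for early post-implantation genes to -3.05 for naive genes.

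Genes of DNA methylation moved apart, with 4 of 9 risen and 4 fallen, beside 35.2% and 35.0% of all genes tested. The de novo methyltransferase genes Dnmt3a and Dnmt3b rose, from 87.2, 89.5 and 93.3 to 640.2, 637 and 627 CPM and from 173, 171 and 181 to 1325, 1253 and 1251 CPM, and their cofactor Dnmt3l from 84.8, 88.9 and 90.2 to 799, 816 and 824 CPM. All 3 rose less than in WT cells (differences -1.14 ± 0.05, -1.37 ± 0.04 and -0.27 ± 0.07). Tet2, a dioxygenase that removes the mark, fell from 278, 295 and 298 to 67.6, 67.8 and 67.3 CPM, Tet3 rose by 0.85 ± 0.07, and Tet1 did not pass (0.01 ± 0.10). The maintenance genes Dnmt1 and Uhrf1 fell (-0.15 ± 0.03 and -0.23 ± 0.02), and both turned to rises under spike-in scaling. Of 17 germline genes that DNA methylation keeps silent in somatic cells, 10 rose and 4 fell. Mael, of the piRNA pathway, rose from 3.11, 2.86 and 2.54 to 12.2, 13.2 and 14.8 CPM, Dazl, an RNA-binding protein of germ cells, fell from 119, 122 and 121 to 35.6, 39.0 and 36.2 CPM, and Sohlh2 rose by 1.34 ± 0.05. Of the 17 genes, 9 changed more downward than in WT cells and 5 more upward, beside 20.0% and 25.7% of all genes tested.

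Markers of other cell types were read to see which cells the cultures could hold. Of 9 primitive streak markers 7 could be tested, of which 2 rose and 3 fell. T (brachyury) lay between 0.201 and 0.360 CPM in all 6 libraries, and Eomes rose from 4.75, 5.44 and 5.29 to 11.5, 10.4 and 12.2 CPM. Of 14 early neural markers 10 could be tested, 6 rose and 2 fell. Sox1 rose from 3.43, 4.11 and 3.48 to 13.5, 12.4 and 13.6 CPM, Sox11 from 1.21, 1.05 and 1.67 to 49.2, 47.4 and 51.9 CPM, and Pax6 by 1.51 ± 0.14. Nes and Tubb3 fell (-1.10 ± 0.06 and -1.02 ± 0.05), and Pax3, Hes5, Neurog2 and Olig2 were too low to be tested. Their summed level was 104 to 109 CPM in ESC and 127 to 132 CPM in T48 libraries.

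Of 12 primitive endoderm markers 4 rose and 4 fell, beside 35.2% and 35.0% of all genes tested. Their summed level went from 215 to 231 CPM to 58.5 to 59.4 CPM. Most of that sum was Lama1, a laminin chain, which fell from 166, 172 and 179.7 to 7.28, 6.73 and 9.19 CPM, and Dab2, an endocytic adaptor, which fell from 29.8, 29.7 and 31.2 to 6.24, 7.87 and 8.38 CPM. The defining factor Gata6 was at 3.22, 2.66 and 2.94 CPM before and 1.16, 1.47 and 1.21 CPM after, and Sox7 did not exceed 0.106 CPM in any of the 6 libraries. Of 8 trophectoderm markers 7 could be tested, 2 rose and 4 fell. Tfap2c, which ESCs express too, fell from 86.5, 81.9 and 84.0 to 8.12, 9.01 and 9.42 CPM, and Tead4 fell (-2.57 ± 0.06). Cdx2 was at 1.16, 0.806 and 0.803 and 0.320, 0.441 and 0.402 CPM. All 5 testable markers of the 2-cell-like state fell, from a summed 7.58 to 8.90 CPM to 1.32 to 1.49 CPM, and they belong to families whose copies share reads. Of 7 fibroblast markers, Dcn and Col1a2 rose, the latter from 0, 0.0806 and 0.201 to 0.520, 0.478 and 0.517 CPM, while Col1a1 and Thy1 did not pass. Postn had 1 read in the 6 libraries together. The part of such cells in the changes above was not tested.

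Genes of the cell cortex, where ezrin acts, moved both ways, as did all genes tested (35.2% rose and 35.0% fell). Of 10 ERM genes, partners and kinases 5 rose, 2 of them by more than 2-fold, and 4 fell, none by that much. Msn (moesin) fell from 393, 385 and 378 to 293, 295 and 288 CPM and Rdx (radixin) rose from 298, 306 and 293 to 357, 346 and 346 CPM. Podxl, a sialomucin that ERM proteins anchor, rose from 17.6, 16.1 and 15.4 to 108, 107 and 104 CPM (2.70 ± 0.06). Stk10 (LOK), a kinase that phosphorylates ERM proteins, rose by 1.46 ± 0.06. Its relative Slk fell (-0.23 ± 0.04), with the sign turned under spike-in scaling. Slc9a3r2, a scaffold for ERM proteins, rose by 0.55 ± 0.05 and fell in WT cells (-1.41 ± 0.05), a difference of 1.96 ± 0.08. Cd44, a hyaluronan receptor bound by ERM proteins, fell from 0.845, 0.846 and 0.669 to 0.560, 0.404 and 0.402 CPM, while it was switched on in WT cells (0.215 to 4.86 CPM, means).

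Class I myosins, which link membrane to actin, fell in 6 of 8 cases. Myo1c fell from 181, 185 and 188 to 79.6, 77.3 and 75.6 CPM, Myo1e fell too (-1.23 ± 0.05), while Myo1d rose by 0.91 ± 0.10. Myo1f fell (-0.26 ± 0.10) and turned to a rise under spike-in scaling. Myo1h was at 2 reads in the ESC libraries and 31 at T48 (ratio 13.1, 95% counting interval 3.33 to 113).

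Of 14 genes of integrins and focal adhesions 8 rose and 5 fell. Thbs1, a matricellular protein, rose from 1.11, 1.77 and 1.0040 to 53.6, 59.1 and 57.7 CPM (5.38 ± 0.12), the laminin receptor chain Itga3 from 95.7, 92.5 and 96.8 to 301, 311 and 312 CPM, and Zyx (zyxin) from 8.97, 9.35 and 9.57 to 33.7, 35.6 and 32.9 CPM. Zyx rose less than in WT cells (difference -2.26 ± 0.10). The fibronectin receptor chain Itga5 fell (-0.62 ± 0.04) and so did Itgb5 (-0.92 ± 0.05). Pxn (paxillin) fell (-0.17 ± 0.05), with the sign turned under spike-in scaling. Tln1 (talin) did not pass, at 511, 496 and 538 CPM before and 501, 496 and 508 CPM after. Matrix genes fell in 6 of 9 cases. Nid1 (nidogen) fell from 576, 565 and 576 to 33.6, 36.7 and 35.2 CPM, Fn1 (fibronectin) from 1573, 1554 and 1641 to 742, 672 and 716 CPM and Sparc from 488, 489 and 485 to 109, 117 and 114 CPM. Lamb1 and Col4a1, of the basement membrane, rose by 1.78 ± 0.05 and 1.79 ± 0.07.

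Of 12 genes of cadherins and the epithelial-mesenchymal balance 7 rose and 4 fell. Cdh1 (E-cadherin) fell from 1148, 1128 and 1133 to 812, 797 and 782 CPM, and Cdh2 (N-cadherin) rose from 3.43, 2.86 and 3.21 to 8.08, 9.30 and 8.27 CPM. Epcam rose from 33.4, 33.0 and 31.2 to 184, 183 and 187 CPM and the tight junction scaffold Tjp1 by 0.74 ± 0.03. Zeb2 was switched on (0.264, 0.242 and 0.268 to 7.08, 6.58 and 6.95 CPM), and Vim (vimentin) fell from 209, 212 and 215 to 107, 111 and 109 CPM. Of 14 targets of SRF and YAP, which respond to actin tension, 11 could be tested, 7 rose and 3 fell. Ccn1 fell from 55.5, 53.7 and 59.3 to 23.0, 22.2 and 24.6 CPM, Ccn2 rose by 0.16 ± 0.07, and Tpm1 and Myl9 rose by 0.44 ± 0.03 and 3.53 ± 0.23. Of the 11, 8 changed more downward than in WT cells, beside 20.0% of all genes tested. Amotl2 fell (-0.20 ± 0.03) and turned to a rise under spike-in scaling.

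Genes of endocytosis fell in 11 of 15 cases, none by 2-fold, with a median of -0.38 beside -0.66 in WT cells. Of the 15, 6 changed more upward than in WT cells and 2 more downward, beside 25.7% and 20.0% of all genes tested. The early endosome GTPases Rab5b and Rab5c fell (-0.90 ± 0.05 and -0.65 ± 0.03), and Rab5a from 137, 123 and 125 to 104, 102 and 102 CPM. The adaptor chain Ap2m1 fell from 98.2, 100.5 and 97.5 to 55.8, 53.3 and 57.8 CPM and the clathrin light chain Clta fell too (-0.60 ± 0.03). The clathrin heavy chain Cltc (0.06 ± 0.03) and the tether Eea1 (0.54 ± 0.06) rose, and Rab11a, of recycling endosomes, did not pass (-0.05 ± 0.05). Of 7 caveolar genes 4 could be tested, of which Ehd2 rose and Cavin3 and Pacsin2 fell. Cav1, the main protein of caveolae, had no read in the 6 libraries, which allows at most 0.0511 CPM in the ESC group and 0.0431 CPM in the T48 group.

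Of 21 genes of cholesterol synthesis and uptake 20 rose and none fell, with a median of 0.70. Lss, lanosterol synthase, rose from 110.1, 107 and 111 to 289, 297 and 291 CPM, and Fdft1, squalene synthase, did not pass (0.02 ± 0.03). Of 16 genes of glycolysis and glucose uptake 11 rose and 5 fell. Of the 16, 12 changed more downward than in WT cells, beside 20.0% of all genes tested. The lactate exporter Slc16a3 rose from 1.74, 2.70 and 2.34 to 584, 576 and 567 CPM (7.97 ± 0.06). The glucose transporter Slc2a1 rose from 177, 183 and 178 to 483, 478 and 461 CPM while Slc2a3 fell from 1224, 1204 and 1189.8 to 611, 645 and 632 CPM. Hk1 and Hk2, hexokinases, fell (-2.10 ± 0.04 and -0.98 ± 0.03), Pkm rose from 972, 974 and 952 to 2175, 2114 and 2086 CPM, and Gpi1 fell (-0.25 ± 0.03) with the direction turned under spike-in scaling.

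All 13 mitochondrially encoded mRNAs fell, within a narrow range of -0.90 to -0.60, none by 2-fold. mt-Co1 fell from 2922, 3086 and 3015 to 1819, 2003 and 2111 CPM and mt-Nd1 from 1392, 1414 and 1379 to 685, 795 and 831 CPM. Of 15 genes of ATF4 and the integrated stress response 5 rose and 8 fell. Of the 15, 13 changed more downward than in WT cells, beside 20.0% of all genes tested. Asns, asparagine synthetase, fell from 998, 1005 and 968 to 235, 256 and 235 CPM and Trib3 from 43.5, 44.9 and 38.6 to 16.4, 17.3 and 15.6 CPM, whereas Trib3 rose in WT cells (0.53 ± 0.05). Psat1, of serine synthesis, fell (-0.71 ± 0.03) and rose in WT cells (0.42 ± 0.03). Slc7a5, Sesn2 and Atf5 fell (-0.18 ± 0.03, -0.11 ± 0.03 and -0.15 ± 0.04), and each turned to a rise under spike-in scaling.

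Of 13 G1 cyclins and CDK inhibitors 6 rose and 6 fell, beside 35.2% and 35.0% of all genes tested. Of the 13, 7 changed more upward than in WT cells and 3 more downward, beside 25.7% and 20.0% of all genes tested. Ccnd3 fell from 253, 249 and 254 to 101, 104 and 106 CPM and Ccne1 rose from 149.6, 145 and 139 to 217, 219 and 219 CPM. Cdkn1a (p21) fell from 266, 259 and 246 to 79.1, 80.6 and 82.0 CPM. Among 10 p53 targets 5 rose and 5 fell, beside 35.2% and 35.0% of all genes tested. Of the 10, 8 changed more upward than in WT cells and 2 more downward, beside 25.7% and 20.0% of all genes tested. Pmaip1 (Noxa), a BH3-only protein, rose from 5.60, 5.16 and 5.29 to 110.1, 115 and 107 CPM. Mdm2 fell (-0.18 ± 0.03), with the sign turned under spike-in scaling. Of 12 genes of folliculin, TFE3 and the lysosome, a route of exit from the naive state, 4 rose and 8 fell. Tfe3 rose from 110.1, 105 and 106 to 172, 163 and 166 CPM, Tfeb fell from 35.3, 36.6 and 41.2 to 7.92, 8.38 and 10.3 CPM, and Flcn fell (-0.30 ± 0.05). The lysosomal protease gene Ctsb fell (-1.37 ± 0.04), and so did Lamtor1 (-0.23 ± 0.04), with the direction turned under spike-in scaling.

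A further outcome was a change with a narrow interval around 0. For 1813 genes (9.82% of those tested) the 95% interval of the log2 change lay within 0.2 of 0 on both sides, of which 1320 did not pass and 493 passed with a small change. The highest per kilobase of these included Eef1a1, an elongation factor (5358, 5382 and 5342 to 5859, 6027 and 5929 CPM, 0.15 ± 0.02), Hsp90ab1, a chaperone (0.12 ± 0.02), and Rpl8, a ribosomal protein (-0.02 ± 0.02). The processed pseudogenes Gm15427, Gm13456 and Gm11478 stood among them too, and all 6 belong to families whose copies can share reads. Under spike-in scaling no gene met this criterion. The spike-in share varied among the T48 libraries (0.759% to 1.15%), and how far this widened the intervals was not tested. Of 12 genes widely used as references 3 rose, 4 fell and 5 did not pass. Rplp0 did not pass (-0.02 ± 0.03), Tbp rose by 0.24 ± 0.04, and Ywhaz and B2m fell (-0.51 ± 0.03 and -0.89 ± 0.09). Actb and Sdha fell (-0.20 ± 0.02 and -0.11 ± 0.03), and both turned to rises under spike-in scaling. Gapdh and Ppia, with many processed copies, stood at 39.3, 42.2 and 37.9 and at 22.6, 22.7 and 21.6 CPM in the ESC libraries.

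The T24 libraries, which shared the fit of the ESC and T48 contrast but were not of its groups, show the path. The share of a change covered at T24 uses the same ESC libraries as the net change. Genes that rose by more than 2-fold had covered a median of 56.7% of their log2 change at T24, and genes that fell by more than 2-fold 47.5%. Of the rises, 479 (18.9%) had covered under 25% by then and 731 (28.9%) over 75%. Of the falls, 510 (22.3%) had covered under 25% and 465 (20.4%) over 75%. By T24, 281 rises were beyond their T48 level and 207 had first moved down. Of the genes switched on, 50 had 2 CPM or more at T24, 53 lay between the bounds and 40 were still below 0.5 CPM. Of those switched off, 13 were still at 2 CPM or more, 58 between the bounds and 55 below 0.5 CPM.

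Single genes show both ends of that range. Sp5, Cdx1 and Spic were already at 0.0578, 0.256 and 0.810 CPM at T24 (means of 3), whereas Msc was at 10.9 CPM. Esrp1 had 44.2 CPM at T24, whereas Dcn had 0.0485 and Cxcl12 0.406 CPM. Socs3 was already a little below its T48 level at T24, and the change of Zfp42 from ESC to T24 did not pass.

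Some genes peaked or dipped at T24. A peak, with T24 more than 2-fold above both ends and both steps passed, was found for 170 genes and a dip for 108, of which 129 and 76 had no net change beyond 2-fold. Catip went from 3.22 ± 0.571 through 27.4 ± 1.58 to 3.32 ± 0.333 CPM, and Trim43b from 1.14 ± 0.236 through 7.95 ± 0.556 to 0.728 ± 0.0668 CPM. Gata2, a GATA factor, dipped from 5.28, 5.32 and 4.48 CPM to 0.451 ± 0.0574 CPM and was back at 4.12, 4.63 and 5.46 CPM at T48. Ephb1, an ephrin receptor, dipped from 2.83 ± 0.758 through 0.104 ± 0.0788 to 1.28 ± 0.207 CPM.

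WT cells had more genes past 2-fold over the same 48 h, 2918 risen and 2872 fallen. Of the 2533 rises beyond 2-fold in iEZR_CA cells, 416 were smaller than in WT cells, 658 larger and 1459 did not pass the test of the difference. Of the 2284 falls, 688 were smaller, 530 larger and 1066 did not pass. These rises and falls were chosen by their change in iEZR_CA cells, which by itself favours larger changes there. The same split of the WT rises and falls is not given here. Differences beyond 2-fold between the changes numbered 2453, of which 1395 were more upward and 1058 more downward in iEZR_CA cells. Lefty1 and Notum were among the most upward. Among the most downward were Duox1, an NADPH oxidase that fell from 58.0, 51.8 and 50.7 to 1.64, 1.03 and 1.84 CPM, and Frrs1l, which fell from 27.9, 26.1 and 25.4 to 1.72, 1.47 and 2.01 CPM. In WT cells neither gene exceeded a mean of 5.09 CPM at 0 or 48 h. Kif1a, a neuronal kinesin, rose from 1.48, 1.49 and 1.34 to 3.04, 3.64 and 2.76 CPM, against 0.733 to 30.1 CPM in WT cells (difference -4.20 ± 0.31).

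The switch was compared between lines in the same way, as counts with no test. Of the 143 genes switched on in iEZR_CA cells, 70 (49.0%) were also switched on in WT cells, which had 230 in all, so that the overlap was 30.4% of the WT genes. Of the 126 switched off, 51 (40.5%) were also switched off in WT cells, 34.7% of the 147 there. Of the 160 genes switched on in WT cells only, 40 had 0.5 CPM or more in some iEZR_CA ESC library already. The other 120 started below the bound, and 102 of them stayed below 2 CPM in every T48 library, although 114 rose. Their median level at T48 was 0.989 CPM in iEZR_CA and 3.76 CPM in WT cells. The rule chose genes at 2 CPM or more in every WT T48 library but not in every iEZR_CA T48 library. It thus by itself favours a higher T48 level in WT cells. Btbd17 rose from 0.158, 0.161 and 0.535 to 6.12, 6.32 and 5.11 CPM, against a WT mean of 57.5 CPM at T48. Chst1, a keratan sulfotransferase, without a read in iEZR_CA ESCs, had 2.16, 0.956 and 1.21 CPM at T48 (at least 28.4-fold higher) and a mean of 19.2 CPM in WT cells.

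Genes that WT cells switched off and iEZR_CA cells did not were, in most cases, lowered in iEZR_CA cells too. Of 96 such genes, 68 had 2 CPM or more in all iEZR_CA ESC libraries, and 67 of these fell, from a median of 10.8 to 0.937 CPM, while 46 kept 0.5 CPM or more in every T48 library. The WT medians were 6.76 and 0.185 CPM. The rule asked for under 0.5 CPM in every WT T48 library but not in every iEZR_CA T48 library. It thus by itself favours a lower T48 level in WT cells. Ly6a (Sca-1), a surface protein, fell from 330.3, 349 and 330.0 to 2.60, 2.76 and 2.47 CPM in iEZR_CA cells and from a mean of 114 to 0.0615 CPM in WT cells. Mras, a RAS-like GTPase, fell from 206, 203 and 199.6 to 2.16, 2.90 and 2.41 CPM, and its WT mean at T48 was 0.353 CPM. The 3 T48 libraries of both genes lay above 2 CPM. Of the 73 genes switched on in iEZR_CA cells only, 71 rose in WT cells, where 45 started at a mean of 0.5 CPM or more. Of the 75 switched off in iEZR_CA cells only, 68 fell in WT cells, where 55 started below a mean of 2 CPM. Genes of both groups had to miss a bound of the switch in WT cells, so these starts follow in part from the rule. Vrtn, switched on in iEZR_CA cells, had a WT mean of 0.529 CPM at 0 h and 91.4 CPM at T48.

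**Figure D4:**
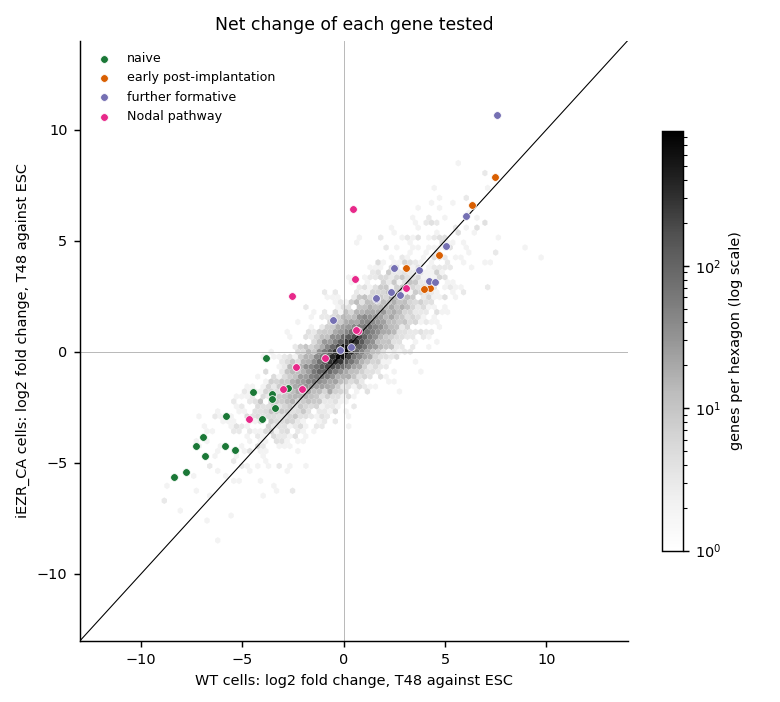
log2 fold change, T48 against ESC, of each tested gene in WT cells (horizontal) and iEZR_CA cells (vertical), with the number of genes per hexagon in grey on a log scale and 4 lists as points around the line of equality. All 15 naive genes lie above the line of equality, and Lefty1, at 6.44 in iEZR_CA and 0.43 in WT cells, is farthest above it of the NODAL pathway.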

How the data were processed

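RNA-seq counts of 18 libraries were used, 3 in each of 6 groups taken from the labels. The study calls them biological replicates. As the labels and the methods of the study give it, the authors made libraries with NEBNext kits from polyA RNA, sequenced paired ends, trimmed with Trim Galore 0.6.5, aligned to GRCm38 (mm10) with GSNAP and counted with HTSeq on Ensembl release 81. The strand setting is not given in the sources used here. The authors deposited whole-number counts of reads per gene, not normalized, for 53801 genes, 92 spike-in sequences and 5 classes of uncounted reads. The uncounted reads (12.4% to 14.1% of reads did not align, 3.54% to 4.62% met no gene, 4.51% to 4.76% were ambiguous, 0.519% to 1.02% had low alignment quality and 0.0761% to 0.169% were not unique) and the spike-ins stayed out of library sizes. Symbols, exon lengths and coordinates came from GENCODE M21 of GRCm38 (95 identifiers not found), promoter sequences from RefSeq.

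Counts were tested with edgeR 4.0.16 (R 4.3.3) on all 18 libraries with a term for the 6 groups, TMM (factors 0.975 to 1.03), filterByExpr and the quasi-likelihood test in its robust form. P-values of the 18469 genes kept were adjusted after Benjamini-Hochberg, with a threshold of 0.05. The difference of the lines is the T48 minus ESC change in iEZR_CA cells minus that in WT cells. CPM are reads per 1000000 reads on genes after TMM. Among the classes of reads that HTSeq left out, those flagged as aligned to several places were 0.0761% to 0.169% of reads. Whether other reads of near-identical copies were placed at the right copy was not tested, so genes with such copies are uncertain. Scripts were tested on simulated data. Libraries held 10940752 to 33276622 reads on genes. Intervals of ratios are 95% exact counting intervals, and bounds use 3 reads over a group.

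Named genes were the members of 36 lists, the 12 largest rises and falls (mean normalized count of at least 50, no overlap), the 12 genes switched on and 12 off highest per kilobase, the 8 largest differences from WT each way, 8 genes switched in 1 line only on each side, the 6 highest with a narrow interval and 6 peaks and 6 troughs at T24. Some of these are not reported here, and genes outside the rule are said to be picked after their values were seen. Members, lists and rules were chosen with earlier results of these data known. Alternatives were DESeq2 1.42.0 (size factors or test), spike-in scaling, low-count filters, only the libraries of the contrast, other switch bounds, and leaving out each library.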

Additional observations from a re-analysis of the deposited data

Results flagged for a closer look

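The direction of the net change differed between the lines in some genes. In 73 genes the change from ESC to T48 went beyond 2-fold in opposite directions in iEZR_CA and WT cells, with a passed edgeR test of the difference, of which 31 rose in iEZR_CA cells and fell in WT cells and 42 did the reverse. Lefty2, a NODAL inhibitor, went from 2.75 ± 0.567 to 15.3 ± 0.603 CPM (SD, n = 3) in iEZR_CA cells and from 35.6 ± 4.52 to 5.99 ± 0.286 CPM in WT cells. Manba, the lysosomal beta-mannosidase, went from 17.9 ± 1.11 to 46.7 ± 1.91 CPM in iEZR_CA cells and from 47.3 ± 1.70 to 12.7 ± 1.12 CPM in WT cells. The gene of the secreted glycoprotein Fstl1 went from 29.8 ± 1.31 to 80.6 ± 5.06 CPM in iEZR_CA cells and from 114 ± 3.78 to 53.9 ± 2.90 CPM in WT cells. In the reverse direction, Id2, an inhibitor of basic helix-loop-helix factors, went from 22.4 ± 2.66 to 7.22 ± 0.561 CPM in iEZR_CA cells and from 4.50 ± 0.210 to 15.4 ± 1.55 CPM in WT cells. The endocytic adaptor Dab2 went from 30.2 ± 0.852 to 7.50 ± 1.12 CPM in iEZR_CA cells and from 2.18 ± 0.530 to 8.98 ± 0.790 CPM in WT cells. Anxa2, a membrane- and actin-binding annexin, went from 32.6 ± 2.04 to 13.9 ± 0.921 CPM in iEZR_CA cells and from 2.51 ± 0.185 to 6.37 ± 0.611 CPM in WT cells. Manba, Fstl1 and Anxa2 were picked after their values were seen. Construct, doxycycline and the line difference seen in Hprt cannot be told apart here.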

How the results depend on the processing

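Scaling to the spike-ins moved the median change of all genes by 0.25 on the log2 scale, so that 7528 genes were higher and 3317 lower at T48, against 6492 and 6462, and 0 genes stayed in the narrow interval. It turned 18 named genes from lower to higher, with log2 changes of 0.055 for Actb, 0.053 for Amotl2, 0.11 for Atf5, 0.097 for Dnmt1, 0.12 for Fgfr1, 0.16 for Gm11478, 0.0089 for Gpi1, 0.027 for Lamtor1, 0.07995 for Mdm2, 0.0037 for Myo1f, 0.079 for Pxn, 0.15 for Sdha, 0.14 for Sesn2, 0.074 for Slc7a5, 0.017 for Slk, 0.076 for Spry2, 0.10 for Tcf7 and 0.023 for Uhrf1. Another 35 of 462 named genes lost their call under it and 5 gained one. With at least 10 counts asked of every library, which leaves fewer genes tested, 1101 rises and 1093 falls lay beyond 2-fold, and 754 changes were more upward and 438 more downward than in WT cells. The interval of 0.1 to either side held 292 genes. Without 1 library at a time, 6071 to 6383 genes were higher and 6224 to 6364 lower, 2454 to 2641 and 2291 to 2372 of them beyond 2-fold, 1571 to 1644 were held in the narrow interval, 150 to 161 were switched on and 130 to 139 off, and 1330 to 1417 changes were more upward and 995 to 1083 more downward than in WT cells. Calls of named genes were lost in 17 genes with the DESeq2 test and in 8 with no low-count filter. Leaving out 1 library at a time, calls were lost 72 times and gained 13 times over the named genes and the 6 libraries. The counts moved by less than 1.5 times with DESeq2 size factors, the DESeq2 test, no filter, only the libraries of the contrast and the other switch bounds. No paired analysis was possible because the labels carry no replicate number. Depth limits the genes under about 0.5 CPM, where a change may go undetected, and with 3 libraries a group the exact permutation test cannot go below p = 0.1.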
